A study of Mus musculus with 4 samples.

Results

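The interferon-stimulated and interferon pathway genes described here are 36 named genes of the count table, out of 20325 in all. They comprise 4 interferon receptor chains, 8 transcription factors (7 interferon regulatory factors and Stat2), 3 cytosolic RNA sensors, 5 regulators of the response and 16 antiviral effectors. They were picked out of the table by symbol, and all 36 were found in the table. RNA came from C3H10T1/2 cells, a mesenchymal line derived from C3H mouse embryos, at passage 10 to 15 and grown in DMEM with 10% serum. Both groups carried a stable transgene for FLAG-HA-tagged H3.3, a histone H3 variant. In one group the tagged histone was wild type (WT, n = 2 libraries), and in the other lysine 36 was replaced by methionine (K36M, n = 2 libraries). The promoter that drove the tagged histone, and whether each line was a clone or a pool, are not given in the sources used here. No library was labelled as treated with an interferon or a virus, so levels are those of unstimulated cultures. The comparison sets RNA levels with the mutant histone, known as an inhibitor of H3K36 methyltransferases, against those with the wild type histone. If each group was a single line, other differences between the lines cannot be told apart from the histone.

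Type I interferons bind the receptor pair Ifnar1 and Ifnar2, and interferon gamma binds Ifngr1 and Ifngr2. Janus kinases on the receptors then phosphorylate STAT proteins. ISGF3, a complex that holds Stat2 and Irf9, binds the interferon-stimulated response element (ISRE), while STAT dimers bind the gamma-activated sequence (GAS). Many target genes keep a low level without added interferon, through unphosphorylated STATs or through other factors such as Irf1. Fibroblasts and other mesenchymal cells can respond to interferon and can make interferon beta after viral infection.

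Library totals ranged from 23343297 to 56041798 expected counts, with a mean in K36M 1.85 times that in WT. Levels are given as counts per 1000000 (CPM), which correct for depth but not for gene length, so they are compared between libraries and not between genes. A floor of 3 counts over both libraries of a group equals 0.0628 CPM in WT and 0.0328 CPM in K36M, and it covers counting error only. Libraries within a group were not copies of each other: the chi-square of their counts averaged 3.56 per gene for WT and 7.04 for K36M, where counting error alone gives a mean near 1. The labels do not say whether they came from separate cultures, so p-values reflect no more than how these libraries differ, which may be technical. The 10 mesenchymal genes fixed as markers of the line, such as Col1a1, Vim and Prrx1, were present in every library. Together these 10 summed to 24440 to 32450 CPM per library. Of these 10 markers 3 were higher and 5 lower in K36M (30% and 50%), against 38.5% and 37.1% of all genes tested. The largest rise was that of Thy1, from 3.17 to 35.5 CPM, and the largest fall that of Col3a1, from 5488 to 1907 CPM.

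The ISRE spelling was found in fewer than 50% of the member promoters, a larger share than over all genes. Promoter windows (250 bases before to 50 after an annotated start, RefSeq, build GRCm38.p6) were found for 32 of the 36 members. The core ISRE spelling, GAAA then any 2 bases then GAAA, searched on both strands, was present in 15 of these 32 genes (46.9%), against 3.99% of all 27025 gene symbols with a window and 3.44% of all windows. The GAS spelling TTCNNNGAA, which reads the same on both strands, was present in 10 of 32 (31.2%) against 9.55% of all symbols. Both were present in 4 members. By role, the ISRE spelling was found in 9 of 14 effectors, 2 of 4 regulators, 2 of 2 sensors, 2 of 8 transcription factors and 0 of 4 receptors. A match is a run of letters and not a measured binding site.

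The stretches below were chosen to set promoters of genes that rose (Trim30a, Oas1a, Bst2, Gbp2, Isg15) beside those of a gene that did not pass the test (Ifit1) and of genes that fell (Ifitm2, Stat2, Ifit3). Capitals mark that spelling or its reverse complement (TTTC, 2 bases, TTTC). Each is written 5′ to 3′ along the gene's own strand and ends before the start site. Oas1a has 2 overlapping matches that begin 20 and 14 bases upstream of its start, and Isg15 has 3 in a row.
Trim30a: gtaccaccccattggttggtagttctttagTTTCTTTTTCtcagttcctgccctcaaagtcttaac
Oas1a: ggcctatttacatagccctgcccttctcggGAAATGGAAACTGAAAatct
Bst2: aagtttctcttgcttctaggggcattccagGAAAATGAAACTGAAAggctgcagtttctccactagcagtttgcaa
Gbp2: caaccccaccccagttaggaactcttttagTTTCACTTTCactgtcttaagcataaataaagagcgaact
Isg15: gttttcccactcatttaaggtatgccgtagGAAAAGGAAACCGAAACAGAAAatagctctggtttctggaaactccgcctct
Ifit1: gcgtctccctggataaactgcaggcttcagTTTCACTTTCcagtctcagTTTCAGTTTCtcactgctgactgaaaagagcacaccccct
Ifitm2: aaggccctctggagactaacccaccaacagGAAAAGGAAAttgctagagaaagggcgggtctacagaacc
Stat2: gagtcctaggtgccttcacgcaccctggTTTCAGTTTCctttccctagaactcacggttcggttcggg
Ifit3: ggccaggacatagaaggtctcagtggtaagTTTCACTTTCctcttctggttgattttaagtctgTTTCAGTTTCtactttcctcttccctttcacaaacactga
In GRCm38.p6 these lie at chr7:104465194-104465259 (Trim30a, minus strand), chr5:120907526-120907575 (Oas1a, minus), chr8:71537557-71537632 (Bst2, minus), chr3:142620574-142620643 (Gbp2, plus), chr4:156200845-156200926 (Isg15, minus), chr19:34640755-34640843 (Ifit1, plus), chr7:140955968-140956037 (Ifitm2, minus), chr10:128270248-128270315 (Stat2, plus) and chr19:34583343-34583446 (Ifit3, plus).

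Of the 36 members, 31 passed the filter on low counts and were tested, 15 were higher in K36M, 8 were lower and 8 did not pass the threshold (edgeR, adjusted p under 0.05). The wider table gives the scale for these counts: 75.6% of 13162 tested genes were called, 38.5% higher and 37.1% lower. Among tested members 48.4% were higher and 25.8% lower. The members' median log2 fold change was 0.19, against 0.0035 over all genes tested. With the authors' library factors in place of TMM scaling (the correction of library totals used throughout), 11 members were higher and 9 lower. The whole table shifted the same way with these factors, with 4360 of 13162 genes higher and 5709 lower. Changes of at least 2-fold upward were found in 7 members (Trim30a, Oas1a, Irf5, Oasl2, Ifih1, Bst2 and Gbp2), 22.6% of those tested against 12.7% of all genes. Of these, Trim30a, Oas1a, Irf5, Oasl2 and Ifih1 reached the filter's level only in K36M libraries, so they had to differ to be tested. Such genes made up 16.1% of tested members and 6.75% of all tested genes, so the 22.6% was partly fixed by the filter. A fall of at least 2-fold was found in 1 member, Ifit3, against 8.69% of all genes.

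**Figure D1:**
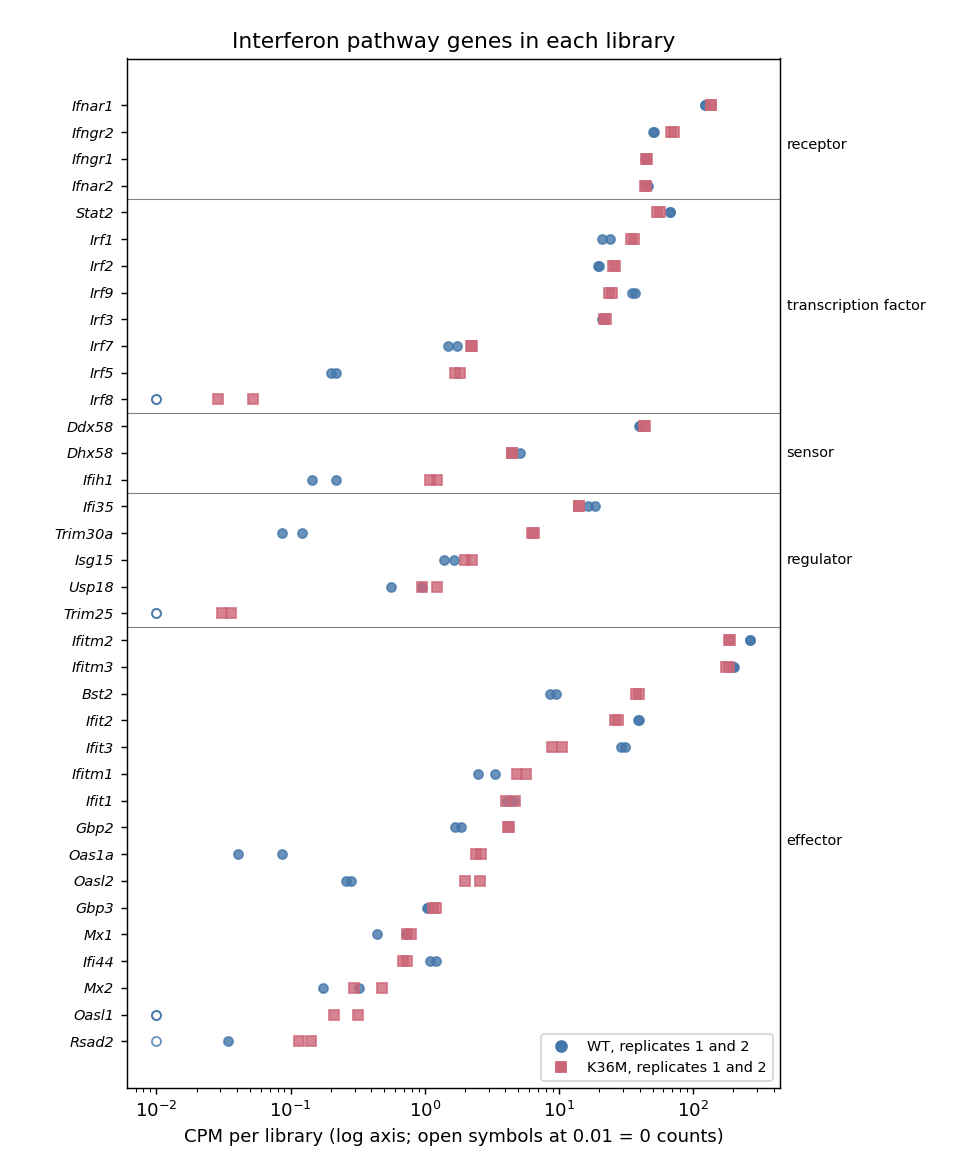
CPM of the 36 members in each library on a log axis, grouped by role and ordered within a role by K36M level. Circles are the 2 WT and squares the 2 K36M libraries, and open symbols at 0.01 stand for 0 counts. The widest gaps between groups lie at low levels, as for Trim30a and Oas1a, while the receptors lie close together.

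**Figure D2:**
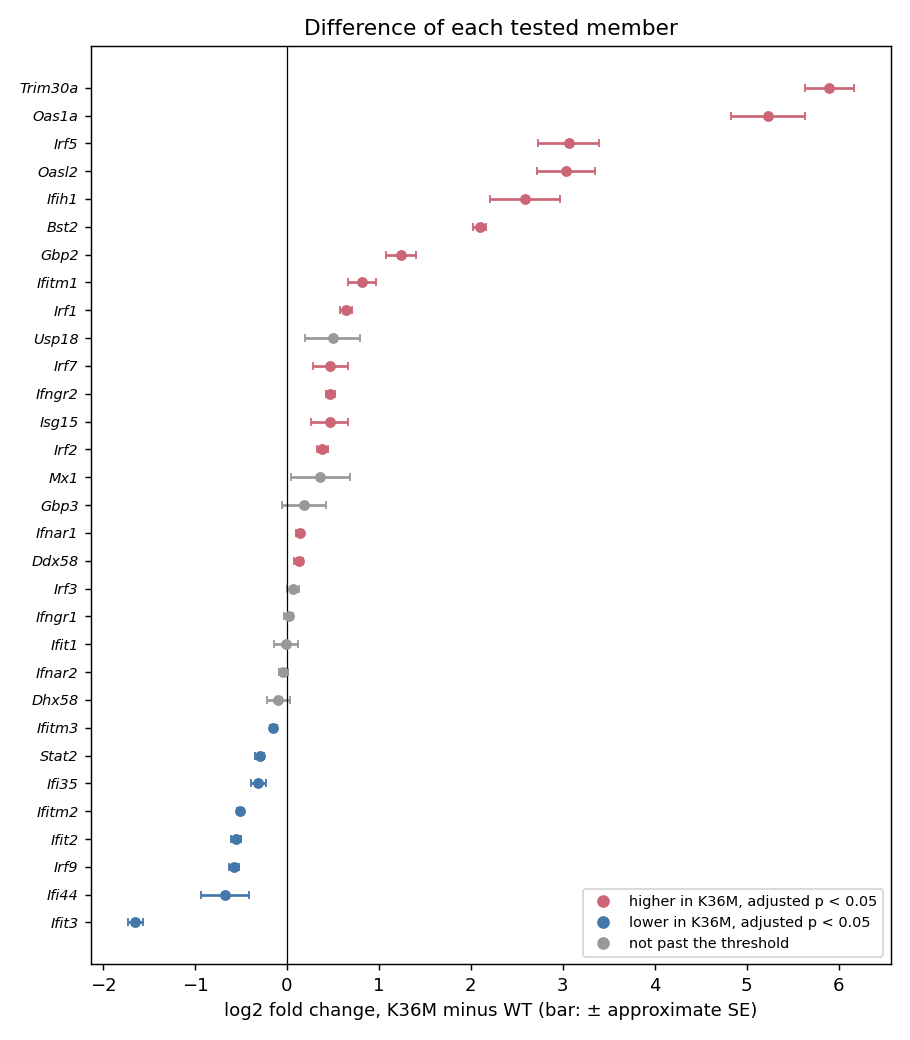
Log2 fold change of K36M minus WT for the 31 members tested, with approximate standard errors as bars and color for the call. Trim30a (5.90) and Oas1a (5.23) stand at the top and Ifit3 (-1.65) at the bottom.

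None of the 10 interferon ligand genes looked up had more than 3 counts in either group. Of these 10 (Ifnb1, Ifng, Ifnk, Ifne, 4 Ifna genes and the lambda genes Il28a and Il28b), 8 had 0 counts in all 4 libraries. The 10 together summed to between 0.0352 and 0.0807 CPM per library, from Ifne (3 counts in each group) and Ifng (1 count in K36M). None passed the filter on low counts. A count of 0 in a group allows up to 0.0628 CPM in WT and 0.0328 CPM in K36M.

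The levels of the 4 member receptor chains differed by at most 1.39-fold between the groups. Ifngr2, the signaling chain of the interferon gamma receptor, was at 50.8 and 50.5 CPM in WT against 68.1 and 72.6 CPM in K36M, with both K36M libraries above both WT libraries. It was 1.39-fold higher (log2 fold change 0.47, SE 0.05, adjusted p = 9.28e-08). Its partner Ifngr1, which binds the ligand, was at 44.1 and 45.0 CPM in WT against 44.8 and 45.5 CPM in K36M. These ranges overlapped, and the log2 fold change was 0.02 (SE 0.05, adjusted p = 0.712). Of the type I receptor, Ifnar1 was at 124 CPM in both WT libraries and 136 CPM in both K36M libraries, a rise of 1.10-fold (adjusted p = 0.00473). That call was lost with the authors' factors (adjusted p = 0.251) and without WT replicate 1 (0.0655) or WT replicate 2 (0.0727). Ifnar2, the other chain, was at 45.0 and 46.0 CPM in WT against 44.7 and 43.7 CPM in K36M (log2 fold change -0.04, adjusted p = 0.477). Under the authors' factors it was called lower (-0.12, adjusted p = 0.0267). Ifnar2, Il10rb, Ifnar1 and Ifngr2 stand in this order as neighboring coding genes in RefSeq, and Il10rb, a chain shared by the interleukin-10 and interferon lambda receptors, rose from 19.5 ± 0.28 to 34.4 ± 1.75 CPM (1.76-fold).

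Both members that belong to the ISGF3 complex, Stat2 and Irf9, fell. Stat2, the component that is specific to type I and lambda interferon signaling, was at 67.5 and 67.4 CPM in WT against 53.5 and 56.7 CPM in K36M. The groups did not overlap, and the fall was 1.23-fold (log2 fold change -0.29, SE 0.05, adjusted p = 2.16e-05). Irf9, its DNA-binding partner, was at 37.0 and 34.9 CPM in WT against 23.6 and 24.7 CPM in K36M. That is 1.49-fold lower (log2 fold change -0.58, SE 0.06, adjusted p = 4.87e-08). Irf9 shares a stretch of exon with Rnf31, so some of its reads could belong to either gene. The Janus kinase genes Jak1, Jak2 and Tyk2 rose, with log2 fold changes of 0.15, 0.18 and 0.63. The rises of Jak1 and Jak2 (1.11-fold and 1.13-fold) were near that of Ifnar1 (1.10-fold), whose call was lost with the authors' factors. Stat3, which signals for interleukin-6 type cytokines, fell from 285 ± 1.32 to 143 ± 1.29 CPM. Of the 7 receptor and JAK-STAT genes outside the 36, the 5 higher were these kinases, Il10rb and the lambda receptor chain Il28ra. That is 71.4%, against 38.5% of all genes tested. Il28ra, with 4 counts in WT against 47 in K36M, reached the filter's level only in K36M libraries and so had to differ to be tested. The kinases and Il28ra are named after their values were seen.

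The interferon regulatory factors did not move as a block. Irf5, which acts below Toll-like receptors and is known mainly from myeloid cells, was at 0.202 and 0.217 CPM in WT against 1.85 and 1.67 CPM in K36M. It rose 8.36-fold from a low level (log2 fold change 3.06, SE 0.33, adjusted p = 1.31e-07), on 10 counts in WT and 163 in K36M. Its exons overlap those of Tnpo3 on the opposite strand, with 7.51% of its 50-base words in common, and the sources used here do not say whether reads were counted by strand. Tnpo3 itself was at 96.9 ± 2.15 CPM in WT and 107 ± 1.91 CPM in K36M. Irf1, an activator that interferon gamma itself induces, rose from 24.1 and 21.2 CPM to 36 and 34.8 CPM (1.56-fold, adjusted p = 3.72e-08). Irf2, which competes with Irf1 for the same element, rose from 19.9 and 19.4 CPM to 26.1 and 25.2 CPM (1.31-fold, adjusted p = 3.05e-05). Both genes were thus higher in each K36M library than in each WT library.

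Irf3, the factor that turns on interferon beta after RNA or DNA sensing, was at 20.9 and 21.4 CPM in WT against 21.9 and 22.5 CPM in K36M. It did not pass the test (log2 fold change 0.07, adjusted p = 0.366), and its sign turned under the authors' factors (-0.019). Irf7, which amplifies type I interferon production, was at 1.49 and 1.74 CPM in WT against 2.25 and 2.22 CPM in K36M, 1.39-fold higher (adjusted p = 0.0307). The Irf7 call did not hold with the authors' factors (0.0737), with DESeq2 (0.244) or without WT replicate 1 (0.208), K36M replicate 1 (0.117) or K36M replicate 2 (0.053). Irf8, a factor of myeloid and lymphoid cells, had 0 counts in WT and 3 and 1 in the K36M libraries, too few to pass the filter or to give a fold. Of 5 other genes named for IRFs, 3 were higher and 0 lower among 4 tested (75% higher, against 38.5% of all genes tested). Irf4, a lymphoid factor, had 0 counts in WT against 159 in K36M. With WT set at the floor of 3 counts the ratio was 27.7, with no allowance for error in the K36M count. Irf4 reached the filter only in K36M libraries and so had to differ to be tested. Irf2bp1, an Irf2 co-repressor, and the related Irf2bpl rose by log2 fold changes of 0.25 and 0.70.

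The RNA sensors differed from each other. Ifih1, which encodes Mda5, a sensor of long double-stranded RNA, was at 0.144 and 0.217 CPM in WT against 1.09 and 1.24 CPM in K36M. It rose 6.02-fold (log2 fold change 2.59, SE 0.38, adjusted p = 6.28e-06), from 9 counts to 105. Ddx58, which encodes Rig-I, a sensor of RNA with a 5′ triphosphate, was far better covered and moved little, from 40.0 ± 0.35 to 43.7 ± 0.75 CPM. Its rise of 1.09-fold (adjusted p = 0.026) was lost with the authors' factors (0.475), with DESeq2 (0.154) and without WT replicate 1 (0.177) or WT replicate 2 (0.109). Dhx58, which encodes Lgp2, a regulator of both sensors, was at 4.78 ± 0.49 and 4.49 ± 0.03 CPM (log2 fold change -0.09, adjusted p = 0.51).

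Other sensing genes changed in both directions. Of 16 other sensors and adaptors, 15 were tested, 7 were higher and 5 lower (46.7% and 33.3%, against 38.5% and 37.1% of all genes tested). Among the 7, Tlr7, Zbp1 and Ddx60 reached the filter's level only in K36M libraries and so had to differ to be tested. Tmem173, which encodes the DNA-sensing adaptor Sting, rose from 1.19 ± 0.09 to 5.22 ± 0.42 CPM, and the cytosolic DNA sensor Aim2 from 3.91 ± 0.20 to 14.3 ± 0.29 CPM. Nod1, a sensor of bacterial peptidoglycan, fell from 34.0 ± 1.70 to 8.33 ± 0.58 CPM.

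Trim30a had the largest fitted rise of the 31 members tested. This gene, which encodes a TRIM protein that restrains Toll-like receptor signaling to NF-kappaB, had 3 and 2 counts in the WT libraries (0.121 and 0.0869 CPM) and stood at 6.35 and 6.59 CPM in K36M. The log2 fold change was 5.90 (SE 0.27, adjusted p = 4.46e-13), 59.7-fold. Trim30d, a neighboring copy that shares 6.53% of the 50-base words of Trim30a, had 1 count in WT against 104 in K36M, a ratio with a counting interval of 9.53 to 2165. Summed over both copies, the level was 0.121 and 0.13 CPM in WT and 7.66 and 7.45 CPM in K36M. The sum shows that the pair rose, and the split of reads between the copies was not tested.

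Among the remaining regulators Isg15 rose, Ifi35 fell, Usp18 was not called and Trim25 was not tested. Isg15, a ubiquitin-like protein attached to other proteins after interferon, was at 1.52 ± 0.18 CPM in WT and 2.12 ± 0.16 CPM in K36M (1.38-fold, adjusted p = 0.0418). This call was lost with the authors' factors (0.0938), DESeq2 (0.255) and limma-voom (0.0662), and without any 1 of the 4 libraries (0.0511 to 0.239). Usp18, which removes Isg15 and blocks Ifnar2 signaling, was at 0.76 ± 0.28 and 1.09 ± 0.20 CPM with overlapping ranges (log2 fold change 0.50, adjusted p = 0.138). Without WT replicate 2 it was called higher (0.91, adjusted p = 0.0428). Ifi35, a leucine zipper protein induced by interferon, fell from 17.6 ± 1.53 to 14.2 ± 0.05 CPM (1.24-fold, adjusted p = 0.00208). Trim25, the ubiquitin ligase known for activating Rig-I, had 0 counts in WT against 3 in K36M, at or under the floor in both groups. Trim25 is known to be widely expressed, and the sources used here do not name the gene models that reads were counted on, so these counts are not taken as its level.

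The member genes Oas1a and Oasl2, of the oligoadenylate synthetase family, rose from near 0. Oas1a makes the messenger that activates RNase L. It had 1 and 2 counts in the WT libraries (0.0403 and 0.0869 CPM) and stood at 2.40 and 2.62 CPM in K36M. With 3 WT counts in all, its ratio was 39.5 with a counting interval of 13.3 to 193 (fitted log2 fold change 5.23, SE 0.40, adjusted p = 1e-09). Of its 50-base transcript words, 57.6% also occur in its copy Oas1g, so a split of reads between them is uncertain. Summed with Oas1g the level was 0.0403 and 0.0869 CPM in WT and 2.52 and 2.82 CPM in K36M, and Oas1a held 94.2% of the K36M sum. Oasl2, a synthetase-like protein with ubiquitin-like domains, was at 0.282 and 0.261 CPM in WT against 2.01 and 2.59 CPM in K36M (8.18-fold, log2 fold change 3.03, SE 0.31, adjusted p = 7.03e-08). Its direct neighbor Oasl1, which limits Irf7 translation, had 0 counts in WT against 23 in K36M, at least 4-fold higher, and did not pass the filter. Of the 5 Oas genes outside the 36, named here after their values were seen, Oas2 rose from 0.777 ± 0.13 to 2.81 ± 0.50 CPM. Oas1b, Oas1c and Oas3 were not called, with log2 fold changes of -0.18, -0.49 and -0.04, and Oas1g did not pass the filter. Oas1a and Trim30a were also the only members listed in the authors' deposited table of 594 genes, with ratios of 25.7 and 45.8. The log2 values in that table carry an added 1, so low levels are raised there.

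Bst2 was the one well covered effector with a large rise. Bst2, also called tetherin, holds budding virus particles at the cell surface. It was at 8.63 and 9.47 CPM in WT against 37.9 and 39.6 CPM in K36M, on 432 and 3529 counts. The rise was 4.28-fold (log2 fold change 2.10, SE 0.07, adjusted p = 5.81e-15). Its promoter, shown above, holds 2 overlapping ISRE spellings and a GAS spelling that overlaps the first.

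The Ifit cluster went the other way or did not move. Ifit1 binds viral RNA that lacks the host's cap methylation and forms complexes with its relatives, and the 3 genes lie in 1 cluster. Ifit3 was at 29.2 and 31.2 CPM in WT against 8.94 and 10.5 CPM in K36M, 3.14-fold lower (log2 fold change -1.65, SE 0.08, adjusted p = 1.87e-12). Ifit3 shares 51.2% of its 50-base words with its copy Ifit3b, listed in the table as I830012O16Rik. That copy also fell, and the 2 summed to 40.5 and 44.5 CPM in WT and 11.5 and 13.7 CPM in K36M. Ifit2 fell from 39.3 ± 0.71 to 26.9 ± 1.004 CPM (1.47-fold, adjusted p = 3.48e-08). Ifit1 was at 4.32 ± 0.34 and 4.36 ± 0.45 CPM with overlapping ranges (log2 fold change -0.01, SE 0.13, adjusted p = 0.945). The promoters of Ifit1 and Ifit3, printed above, each hold 2 ISRE spellings.

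The Ifitm genes, which block virus entry at membranes, also stand side by side and differed. Ifitm2 fell from 267 ± 1.14 to 187 ± 1.99 CPM (1.43-fold, adjusted p = 4.13e-10) and Ifitm3 from 201 ± 0.91 to 181 ± 6.64 CPM (1.11-fold, adjusted p = 0.0025). Ifitm1 rose from 2.94 ± 0.60 to 5.26 ± 0.59 CPM (1.76-fold, adjusted p = 8.95e-05). The copies share at most 5.56% of their 50-base words with other genes of the table. Ifitm2 shares 36.1% with Gm45717, a gene outside the table whose exons overlap it by 268 bases on the same strand. Some reads counted for Ifitm2 could therefore belong to either gene. The summed level of the 3 was 469 to 473 CPM in WT and 368 to 379 CPM in K36M, so the small rise of Ifitm1 did not offset the falls of the others.

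Among the GTPases, Gbp2, a guanylate binding protein that acts on vacuoles of intracellular pathogens, rose. It was at 1.68 and 1.86 CPM in WT against 4.19 and 4.23 CPM in K36M (2.36-fold, log2 fold change 1.24, SE 0.16, adjusted p = 1.17e-06). Gbp3, which stands near it in the same cluster, did not pass the test (log2 fold change 0.19, adjusted p = 0.489). The Mx proteins trap viral nucleocapsids. Mx1 was at 0.721 and 0.44 CPM in WT and 0.744 and 0.785 CPM in K36M (adjusted p = 0.318), and Mx2, with 12 counts in WT and 34 in K36M, did not pass the filter. Rsad2, which encodes viperin, had 1 count in WT and 12 in K36M, and the interval of that ratio, 0.927 to 268, includes 1. Ifi44 fell from 1.15 ± 0.09 to 0.711 ± 0.03 CPM (1.60-fold, adjusted p = 0.0269), a call that was lost with DESeq2 (0.234) and without any 1 of the 4 libraries (0.0547 to 0.134).

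More of the members with low levels rose than of the better covered ones, and the same held over the whole table. Of 15 tested members with a mean under 5 CPM, 9 rose and 1 fell, and 6 of them (40%) rose at least 2-fold. Among all 2902 tested genes under 5 CPM, 45.7% rose, 24.3% fell and 38.5% rose at least 2-fold. Of 16 members at 5 CPM or more, 6 rose and 7 fell, against 36.5% and 40.7% of 10260 such genes. Among these better covered members, Bst2 alone rose at least 2-fold and Ifit3 alone fell at least 2-fold. Trim30a, Oas1a, Oasl2, Irf5 and Ifih1 reached the filter's 0.337 CPM only in K36M libraries and so had to differ to be tested. Such genes made up 16.1% of tested members and 6.75% of all tested genes. Library ranges did not overlap for 27 of the 31 members, with K36M above in 18 and below in 9, where 44% and 43.1% of all genes had such ranges.

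**Figure D3:**
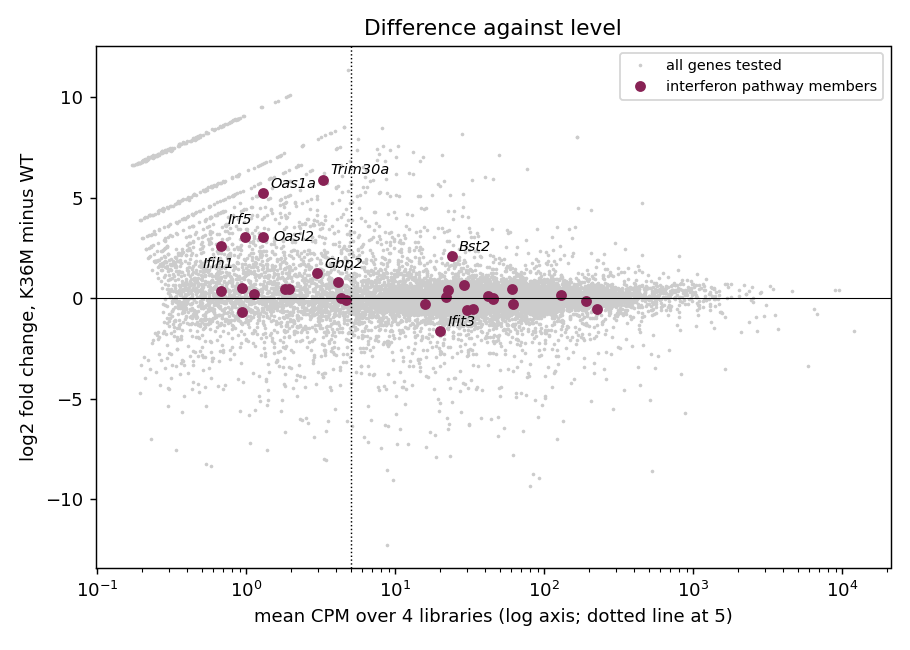
Log2 fold change against mean CPM over the 4 libraries (log axis) for 13162 tested genes in grey and 31 members in purple, with the 8 members past 2-fold named. Left of the dotted line at 5 CPM most members lie above 0, as do more genes of the whole table than below it.

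The ISRE spelling was about as frequent in members that rose as in members that fell. Of the 15 members called higher with a promoter window, 8 held the ISRE spelling (53.3%), and of the 8 called lower, 4 did (50%). The median log2 fold change was 0.29 over 14 tested members with the spelling and 0.10 over 14 without it. Over all genes tested the medians were 0.016 for 336 genes with it and -0.0011 for 8979 without it.

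**Figure D4:**
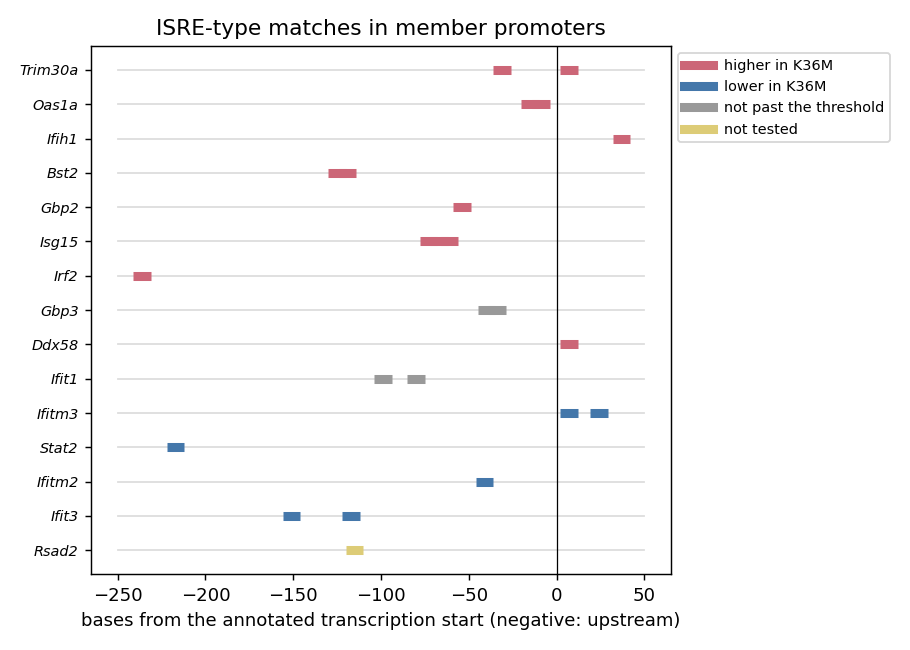
Positions of ISRE spellings on either strand in the promoter windows of the 15 members that hold one, in bases from the annotated start, ordered by log2 fold change with the untested Rsad2 at the bottom. Color gives the call, and matches within 130 bases upstream are seen both in genes that rose (Bst2) and in genes that fell (Ifit3, Ifitm2).

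Genes of the pathway outside the 36 also moved in both directions. Of 116 other pathway genes looked up, 92 were tested, 54 were higher and 22 lower (58.7% and 23.9%), with a median log2 fold change of 0.37. With the authors' library factors 48 were higher and 24 lower. Over all genes tested 38.5% were higher and 37.1% lower, with a median of 0.0035, and under 5 CPM 45.7% were higher and 24.3% lower. Il28ra, Tlr7, Zbp1, Ddx60, Irf4, Cmpk2, Sp100, Slfn2, Gbp4, Gbp9, Iigp1 and Trim30d reached the filter's 0.337 CPM only in K36M libraries. These genes had to differ to be tested, so the 58.7% was partly fixed by the filter. Such genes made up 6.75% of all tested genes. Among 38 tested other interferon-stimulated genes, 20 rose and 9 fell (median 0.21). Sp100, a nuclear body protein, had 4 counts in WT and rose to 8.59 ± 0.53 CPM, and its relative Sp110 rose from 0.284 ± 0.15 to 7.21 ± 0.70 CPM. Slfn2, a Schlafen gene, had 1 count in WT against 222 in K36M, and the counting interval of that ratio was 20.6 to 4599.

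The guanylate binding proteins and immunity-related GTPases had 10 of 11 tested genes higher and 1 lower (median 2.06). That is 90.9% and 9.09%, against 38.5% and 37.1% of all genes tested and 45.7% and 24.3% of those under 5 CPM. These genes are classical targets of interferon gamma. All of those tested but Tgtp1 and Irgm1 had a mean under 5 CPM. Gbp4, Gbp9 and Iigp1 reached the filter's 0.337 CPM only in K36M libraries and so had to differ to be tested. Tgtp2 rose from 0.375 ± 0.11 to 5.32 ± 3.96 CPM, with 8.12 and 2.52 CPM in the K36M libraries, and Iigp1 from 0.27 ± 0.07 to 1.29 ± 0.18 CPM. Gbp9 had 1 count in WT against 117 in K36M (interval of the ratio 10.8 to 2434). Tgtp2 and several Gbp genes have close copies, so the split of reads among them is uncertain. The 1 gene that fell, Irgm1, fell by 0.64 on the log2 scale and was named after its values were seen.

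All 4 tested genes of the HIN200 family, which includes DNA-binding proteins near Aim2, rose (median 0.89), where 38.5% of all genes tested were higher. Ifi203 rose from 4.35 ± 0.48 to 16.3 ± 0.11 CPM, Ifi204 from 10.4 ± 0.17 to 19.9 ± 0.80 CPM and Ifi202b from 8.04 ± 0.12 to 14.7 ± 2.00 CPM. Among 9 genes listed as negative regulators, 4 rose and 3 fell (44.4% and 33.3%), near the 38.5% and 37.1% of all genes tested. Socs3, an inhibitor of cytokine receptors, rose from 31.7 ± 0.29 to 90.1 ± 0.16 CPM, and Nlrx1, an inhibitor of Mavs signaling, fell from 14.3 ± 1.203 to 8.23 ± 0.25 CPM. Nlrc5 rose from 1.72 ± 0.27 to 17.0 ± 1.21 CPM. Nlrc5 is better known as an activator of MHC class I genes than as a brake. Of 4 tested Ifitm and Trim30 relatives, 1 rose (Trim30d) and 2 fell (25% and 50%), too few to set against those shares. Ifitm6 fell from 1.75 ± 0.20 to 1.16 ± 0.07 CPM.

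**Figure D5:**
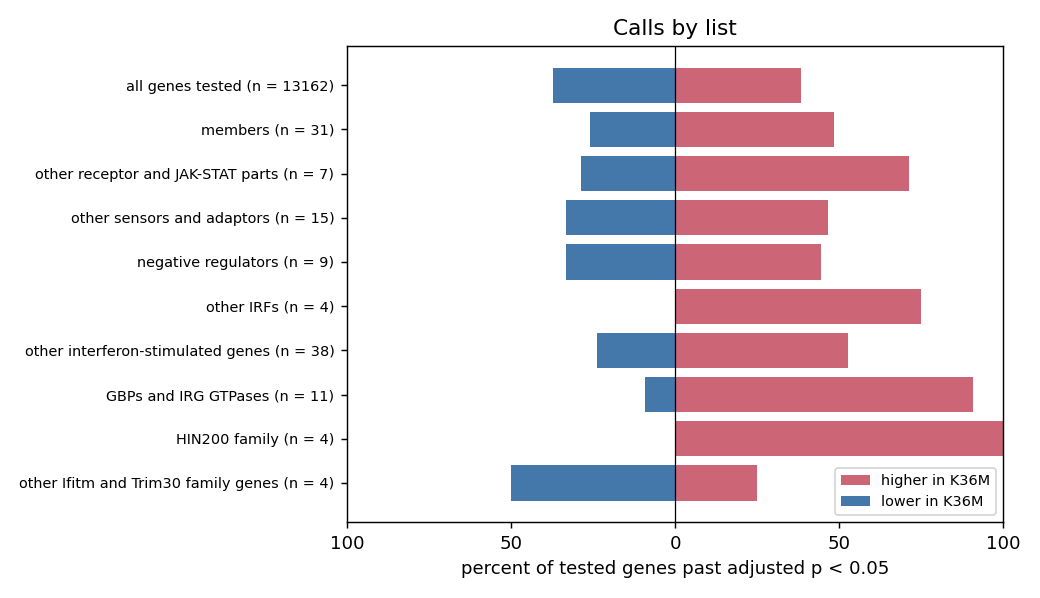
Percent of tested genes called higher (right, red) and lower (left, blue) in K36M for all genes, the 36 members (31 tested) and 8 lists of other pathway genes, with the number tested in brackets. Rises outnumber falls in 7 of the 8 lists, with all 4 HIN200 genes and 10 of 11 GBPs and IRG GTPases higher, and the lists hold 4 to 38 tested genes. Except in the HIN200 and negative regulator lists, some rises are of genes that reached the filter's level only in K36M libraries.

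Blood cells express many of these genes, and their markers were low in every library. Of 11 blood and macrophage markers, 6 were tested, 3 rose and 2 fell (50% and 33.3%, against 38.5% and 37.1% of all genes tested). Their summed level was 8.59 and 9.48 CPM in WT and 16 and 15.9 CPM in K36M, most of it Lyz2 and Cd14. Ptprc, the pan-leukocyte marker, had 0 counts in WT and 15 in K36M, Csf1r had 9 and 45, and the T cell marker Cd3e had 0 counts in all libraries. Sfpi1, which encodes PU.1, fell from 0.399 to 0.114 CPM. Endothelial markers summed to 28.0 to 29.8 CPM in WT and 6.71 to 7.33 CPM in K36M, nearly all Tek in WT. Epithelial markers summed to 5.74 to 6.01 CPM in WT and 23.5 to 25.0 CPM in K36M, most of it Cdh1, with Epcam at 0. The part of these cell type markers in the results was not tested. In RNA from whole cultures a change in the share of cells that express a gene and a change in RNA per cell cannot be told apart.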

How the data were processed

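Whole-culture RNA of 4 libraries was sequenced after Trizol extraction and TruSeq library preparation, per the labels' protocols. Per the file headers, the deposited matrix holds raw expected counts from RSEM, which the authors used for EBSeq; Bowtie 1.0.0, RSEM 1.2.12 and build mm9 are named in the submitters' processing notes. A second deposited table gives log2 values per library and, per the file headers, a fold change, here a linear ratio of K36M over WT. The log2 values that the authors deposited were matched to within 4.98e-09 by scaling each library by 1 factor, adding 1 and taking the logarithm. No row without a gene name was used.

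Expected counts were rounded and tested over the whole table with edgeR 4.0.16 (R 4.3.3): filterByExpr, TMM scaling, quasi-likelihood F test, Benjamini-Hochberg adjustment over 13162 genes. CPM use TMM effective library sizes and are mean ± SD over n = 2. Standard errors are the log2 fold change divided by the square root of F and are approximate. Counting intervals are 95% Clopper-Pearson. On simulated counts (12935 genes) the test recovered 43 of 50 genes changed 1.25-fold and all 50 changed 2-fold, with 7 false calls. The changed genes were drawn from those with a mean above 50 counts per library. All genes were given 1 common dispersion, and most were left unchanged, whereas 75.6% of tested genes were called in the data. These figures therefore do not cover members with few counts. Alternatives used DESeq2 1.42.0, limma 3.58.1, other scalings, filters, a replicate block and left-out libraries. All members are named; values per library are given for receptors, IRFs, Stat2 and members changed at least 2-fold. From each other list up to 3 called genes with the largest change and at least 1 CPM in a group are named; some genes of these lists are not reported here. Members and lists were chosen with earlier results of these data known. Symbols missing from the table were matched through RefSeq synonyms (GRCm38.p6). Shared 50-base words were counted in GENCODE M21 transcripts, and genome positions are given only for promoter windows because the counts were made on another build.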

Additional observations from a re-analysis of the deposited data

How the results depend on the processing

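Over 13 alternatives to the test, the fold changes of the 31 tested members were recomputed, and 352 values kept their direction and side of the threshold, 24 lost a call, 2 gained one and 10 changed sign. The number of genes called over the whole table was 9949 and ranged from 9128 to 9953 with 1 library left out. Members called higher ranged from 12 to 14 and members called lower stayed at 7 with 1 library left out, and for other pathway genes the ranges were 51 to 55 and 17 to 20. Requiring a mean of at least 5 CPM left 6 members and 28 other pathway genes called higher, since fewer genes were tested. Sign changes concerned members that were not called: Ifit1 was 0.030 under upper quartile scaling, 0.039 under total counts, 0.0055 with DESeq2 and -0.10 to 0.11 with 1 library left out. Dhx58 was -0.20 to 0.013 with 1 library left out, Ifnar2 0.0026 under upper quartile scaling and 0.012 under total counts, and with the authors' factors Irf3 was -0.019 and Ifngr1 -0.066. The cause was not tested. The calls of Isg15, Irf7, Ddx58, Ifi44 and Ifnar1 account for the 24 losses. With the replicate number as a block, 15 members were higher and 8 lower, and 9804 genes were called. Libraries with the same number did not deviate together (correlation 0.0026), so the number was not taken as a pairing. Where 1 library is left out, the lone library of a reduced group is assumed to vary like the other group. Irf8, Trim25, Oasl1, Rsad2 and Mx2 had too few counts to pass the filter, and no call is given for them.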
